A study of Homo sapiens with 3 samples.

Results

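The dual-specificity MAP kinase phosphatases examined here were DUSP1, DUSP2, DUSP4, DUSP5, DUSP6, DUSP7, DUSP8, DUSP10, DUSP14 and DUSP16. They were taken by gene symbol, as all probe sets (groups of probes for 1 transcript region) whose platform annotation gives 1 symbol and that symbol is among the 10. This gave 22 of 41091 such probe sets, and 10 of the 19777 genes these probe sets measure. RNA came from KYSE140, an established line of human oesophageal squamous cell carcinoma, grown in RPMI medium with fetal bovine serum and antibiotics. One group was left untreated (1 array). The other (2 arrays, titled B1 and B2) received the DNA-crosslinking platinum compound cisplatin for 12 h, at 10 mM according to the labels. That concentration is printed as labelled, and its unit is in doubt because cultured cells usually receive micromolar cisplatin. No allele or further agent distinguishes the groups. The labels do not say whether B1 and B2 were separate cultures, so p-values measure only the spread between these arrays, which may be technical.

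MAP kinases (ERK, JNK and p38) are switched on by phosphorylation of a threonine and a tyrosine in their activation loop, and dual-specificity phosphatases remove both phosphates. Many of these phosphatase genes are transcribed in response to the kinases they switch off, which makes them feedback brakes on growth factor and stress signalling in epithelial cells. DUSP1, DUSP2, DUSP4 and DUSP5 are inducible nuclear enzymes, DUSP6 and DUSP7 are cytoplasmic and prefer ERK, DUSP8, DUSP10 and DUSP16 prefer JNK and p38, and DUSP14 is a small atypical enzyme without the kinase-docking domain of the others.

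Upstream sequences are shown for DUSP1 and DUSP8, which hold the cyclic AMP response element (CRE), for DUSP2, which holds an E-box, and for DUSP6, the member with the largest difference in B2, whose window holds neither. Each is the 250 bases before an annotated start from RefSeq (GRCh38.p14), on the minus strand of the chromosome, at chr5:172771196-172771445 for DUSP1, chr11:1572272-1572521 for DUSP8, chr2:96145441-96145690 for DUSP2 and chr12:89352502-89352751 for DUSP6. The DUSP8 start is not its outermost, so the DUSP8 window lies within the annotated gene (chr11:1554051-1572848). Capitals mark the CRE (TGACGTCA), its half-site (TGACG), the E-box (CACGTG) and the TATA box (TATAAA), on either strand.
DUSP1: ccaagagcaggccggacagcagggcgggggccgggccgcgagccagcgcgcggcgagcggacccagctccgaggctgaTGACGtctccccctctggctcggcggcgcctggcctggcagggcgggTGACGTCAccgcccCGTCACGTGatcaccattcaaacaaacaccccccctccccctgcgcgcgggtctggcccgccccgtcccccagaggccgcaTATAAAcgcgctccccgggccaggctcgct
DUSP8: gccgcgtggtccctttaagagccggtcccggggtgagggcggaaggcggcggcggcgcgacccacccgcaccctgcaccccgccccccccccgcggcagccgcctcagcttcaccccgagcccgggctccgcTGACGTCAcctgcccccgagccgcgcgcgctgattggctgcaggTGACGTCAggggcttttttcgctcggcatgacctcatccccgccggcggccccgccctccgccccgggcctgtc
DUSP2: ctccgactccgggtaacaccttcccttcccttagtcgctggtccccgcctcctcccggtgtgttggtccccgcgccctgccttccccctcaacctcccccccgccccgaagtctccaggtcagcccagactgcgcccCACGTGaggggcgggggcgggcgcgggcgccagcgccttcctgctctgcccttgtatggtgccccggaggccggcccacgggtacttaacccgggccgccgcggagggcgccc
DUSP6: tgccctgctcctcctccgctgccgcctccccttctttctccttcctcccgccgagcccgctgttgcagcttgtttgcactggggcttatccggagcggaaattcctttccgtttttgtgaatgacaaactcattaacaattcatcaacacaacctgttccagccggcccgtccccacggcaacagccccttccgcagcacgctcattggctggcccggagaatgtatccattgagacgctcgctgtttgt

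Of the 10 genes, 8 were matched to upstream windows and searched, in 9 windows because DUSP10 has 2 annotated starts there. DUSP4 and DUSP5 were not searched. DUSP1 held 1 full CRE, with its first base 125 bases before the start, and 4 half-sites, 2 of them within that CRE. DUSP8 held 2 full CREs, at 118 and 74 bases before a start that is not its outermost. The windows of DUSP8 and DUSP14 both lie within the annotated gene. A full CRE was found in 1.65% of all 35116 windows of this length, and a half-site in 21.2%. An E-box was found in DUSP1 (at 108 bases, overlapping a half-site) and DUSP2 (at 113 bases), against 6.34% of all windows. DUSP1 alone of the 8 held a TATA box (at 30 bases), against 10.7% of all windows. The CCAAT box (CCAAT) was matched 4 times in the outer DUSP10 window and once each in DUSP6 and DUSP8, against 32.0% of all windows. No match was found in any of the 8 for an AP-1 site (TGANTCA, 6.57% of all windows), an ETS site (CCGGAAG, 8.52%) or a CArG box (1.16%), which says only that these letters are not in these windows.

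**Figure D1:**
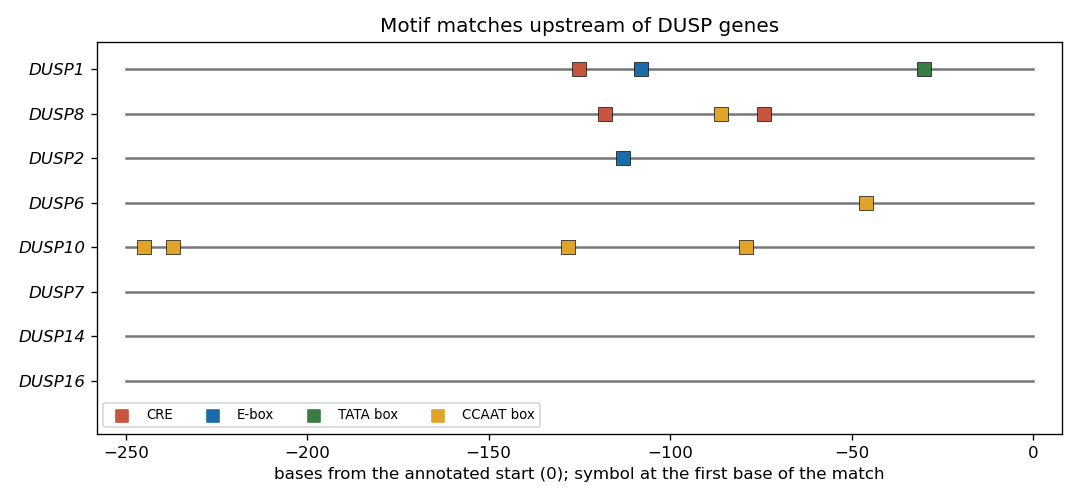
Motif matches in the 250 bases before the annotated start of 8 DUSP genes. The x axis is distance from the start in bases, each line is 1 window, and each square is the first base of a match. The start is the outer one for DUSP10, and an inner one for DUSP8 and DUSP14. DUSP1 carries 1 CRE, DUSP8 carries 2, and the DUSP7, DUSP14 and DUSP16 windows carry none of the motifs drawn.

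The arrays held intensities made with RMA, which were set on the log2 scale. B2 stood apart from the other arrays: the SD over all genes of the log2 difference was 0.33 between B1 and untreated, 0.60 between B2 and untreated, and 0.56 between B2 and B1. Of 10 listed markers of squamous or general epithelium, 7 were measured, all at a mean log2 level of at least 6. Their summed intensity was 18864 untreated, 19101 in B1 and 28764 in B2. The brightest untreated were SFN and EPCAM (log2 values of 13.10 and 12.15), so this sum does not check squamous identity. KRT6A, KRT17 and TP63 were not measured. The median log2 difference of the list was -0.01 in B1 and 0.63 in B2. In B2, KRT14 was higher by 3.10, KRT5 by 1.80, DSG3 by 1.07, ITGA6 by 0.63 and SFN by 0.52. CDH1 was at 0.06 and EPCAM at -0.12. The part of these B2 differences in the DUSP values was not tested. The leukocyte markers (5 measured of 7, summed intensity 148 untreated and 151 to 155 after cisplatin) and endothelial markers (5 of 5, 104 and 110 to 119) all lay below a mean log2 level of 6. The 8 fibroblast markers summed to 333 untreated, 362 in B1 and 452 in B2. Of these, 2 lay above that level; THY1 went from a log2 value of 5.89 untreated to 7.17 in B2, and the median B2 difference of the list was 0.06. Arrays give no true zero, so none of these markers is at 0. Fewer cells of a type and less RNA per cell cannot be told apart in such bulk samples.

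The 10 phosphatase genes did not differ from untreated in 1 common direction. Each gene was represented by its brightest probe set (highest mean log2 value over the arrays). By these, DUSP2, DUSP5 and DUSP8 were higher in both cisplatin arrays, DUSP10 and DUSP16 were lower in both, and the remaining 5 lay on opposite sides of the untreated array in B1 and B2. So 3 of 10 were higher in both against 39.2% of all genes, 2 of 10 lower in both against 27.4%, and 5 of 10 opposite against 33% of all genes. All 10 had a mean log2 level of at least 6, and of the 10209 genes at that level 29.8% were higher in both, 34.2% lower in both and 36% opposite. None of the 10 differed by 2-fold in both arrays, in either direction (0.142% of all genes were so higher and 0.678% so lower). The spread between the cisplatin arrays was large: DUSP1, DUSP4 and DUSP6 differed by 2-fold or more between B1 and B2, 3 of 10 against 6.22% of all genes and 9.01% of those at a mean log2 level of at least 6. The median distance between B1 and B2 was 0.71 for the 10 genes and 0.29 for genes at that level.

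No member passed limma's test across all genes (0 of 10 at an adjusted p of 0.05, background 0%). At an unadjusted p under 0.05 there were 0 of the 10, and 565 of the 19777 genes. The untreated group had no replicate, so the fit takes its spread from the cisplatin pair and a prior over genes. Standard errors (SE) and 95% confidence intervals below come from that fit.

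**Figure D2:**
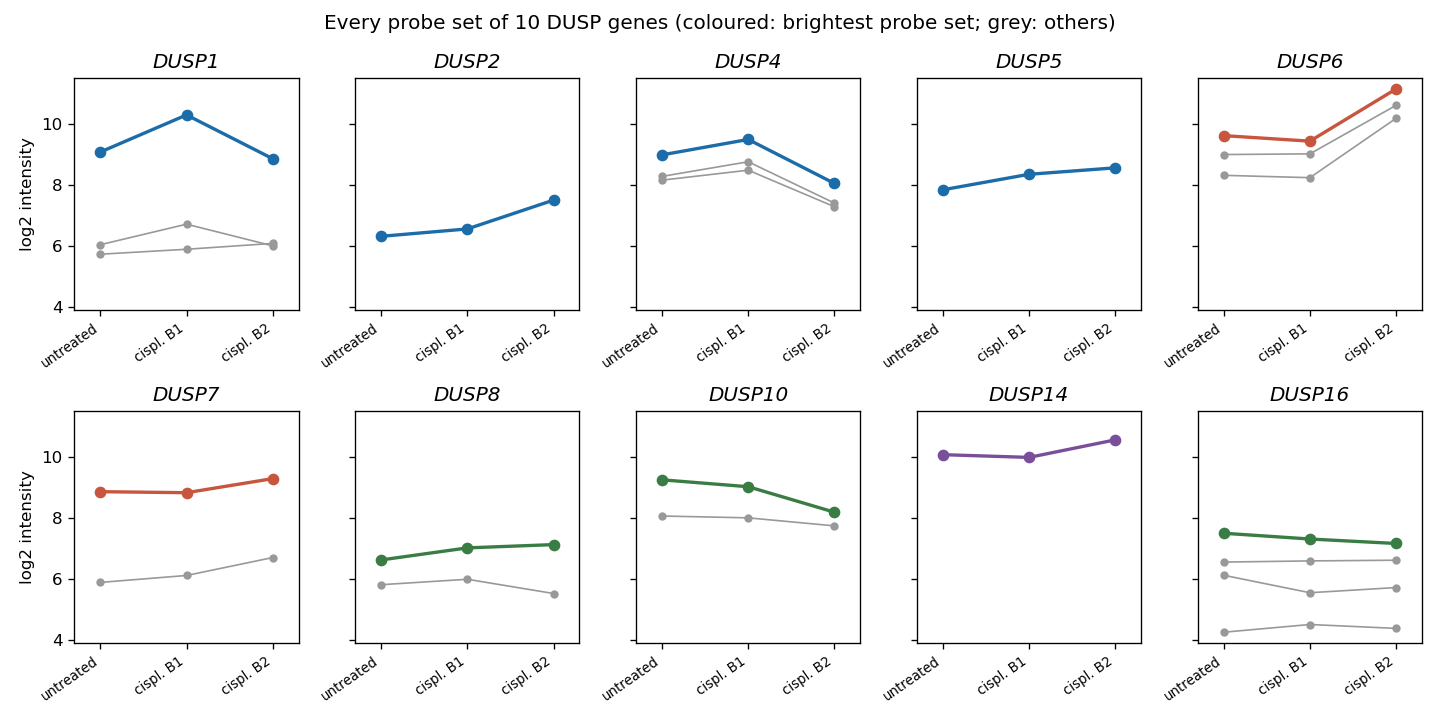
Log2 intensity (y axis) of all 22 probe sets of the 10 DUSP genes in the untreated array and the 2 cisplatin arrays (x axis). Each point is 1 array, lines join the values of 1 probe set, and the brightest probe set is coloured. The 3 DUSP6 probe sets are all highest in B2, and the 3 DUSP4 probe sets are all highest in B1 and lowest in B2.

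Among the inducible nuclear enzymes, DUSP1 was higher in B1 alone. DUSP1 (MKP-1), which acts on JNK, p38 and ERK, had log2 values of 9.09 untreated, 10.30 in B1 and 8.87 in B2 by probe set 201041_s_at. It was thus 2.32-fold higher in B1 and 1.16-fold lower in B2, and the cisplatin mean of 9.58 ± 1.02 (SD, n = 2) spanned the untreated value. On average the log2 difference came to 0.50 (SE 0.74, interval -1.85 to 2.85). In B1 a 2-fold higher level was seen in 1 of 10 members and 0.238% of all genes. Both dimmer DUSP1 probe sets differed less in B1, and they did not agree in B2: 201044_x_at was higher by 0.67 in B1 and at -0.04 in B2, and 226578_s_at was higher by 0.16 and 0.35. The ending _x_at marks probes that may also bind other transcripts.

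DUSP4 (MKP-2), a nuclear relative of DUSP1, was likewise higher in B1 and lower in B2. Its log2 values by probe set 204014_at were 8.99 untreated, 9.50 in B1 and 8.06 in B2, or 1.42-fold higher and 1.91-fold lower. The other two DUSP4 probe sets gave 0.48 and -0.87 (226034_at) and 0.33 and -0.87 (204015_s_at), so all 3 had the same order of arrays. With a mean log2 difference of -0.22 (SE 0.74, interval -2.57 to 2.14), the sign of DUSP4 depended on which cisplatin array was taken.

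DUSP5, a nuclear phosphatase specific for ERK, was the member with the largest smaller-of-2 difference in 1 direction. Its log2 values by its only probe set, 209457_at, were 7.85 untreated, 8.36 in B1 and 8.57 in B2, and the untreated value lay below both cisplatin values. The cisplatin mean was 8.46 ± 0.15 (SD, n = 2), a mean difference of 0.61 or 1.53-fold (SE 0.21, interval -0.06 to 1.29). The limma p was 0.062 unadjusted, the smallest of the 10, and 0.97 adjusted. The 3 genes closest to DUSP5 in both differences, of 10208 searched at a mean log2 level of at least 6 over 3 arrays, were PNN (0.51 in B1 and 0.70 in B2), PNRC1 (0.52 and 0.74) and ING1 (0.51 and 0.69), at distances of 0.022, 0.027 and 0.028 on the log2 scale.

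DUSP2 (PAC-1), a nuclear phosphatase best known from activated lymphocytes, was higher mainly in B2. Its log2 values by its only probe set, 204794_at, were 6.32 untreated, 6.57 in B1 and 7.51 in B2. Both cisplatin values lay above the single untreated value, as in 39.2% of all genes. The B1 value was 1.18-fold above untreated and the B2 value 2.28-fold. The mean difference of 0.72 (SE 0.51, interval -0.89 to 2.32) was close to the SD of 0.67 between the cisplatin arrays.

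Of the cytoplasmic ERK phosphatases, DUSP6 (MKP-3), a feedback inhibitor of ERK, was high in B2 alone. By probe set 208891_at its log2 values were 9.62 untreated, 9.44 in B1 and 11.16 in B2, or intensities of 790, 696 and 2282. The B2 level was 2.89-fold above untreated, and the B1 level 1.13-fold below. The other two probe sets gave 0.02 and 1.61 (208892_s_at) and -0.08 and 1.87 (208893_s_at). All 3 therefore placed B1 within 0.182 of untreated and B2 far above it. The mean difference of 0.67 (SE 0.87, interval -2.10 to 3.45) was smaller than the SD of 1.21 between the cisplatin arrays. A B2 level at least 2-fold higher was seen in 2 of 10 members, DUSP6 and DUSP2, and in 2.99% of all genes.

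DUSP7 (MKP-X), the other cytoplasmic ERK phosphatase measured, had log2 values of 8.87 untreated, 8.84 in B1 and 9.30 in B2 by probe set 213848_at. The dimmer 214793_at was at 5.89, 6.12 and 6.71, higher by 0.23 and 0.81. B2 was the highest array in each, while B1 lay on different sides of untreated. The mean difference by the brighter probe set was 0.20 (SE 0.29, interval -0.74 to 1.13), and 0.36 as a mean over both.

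**Figure D3:**
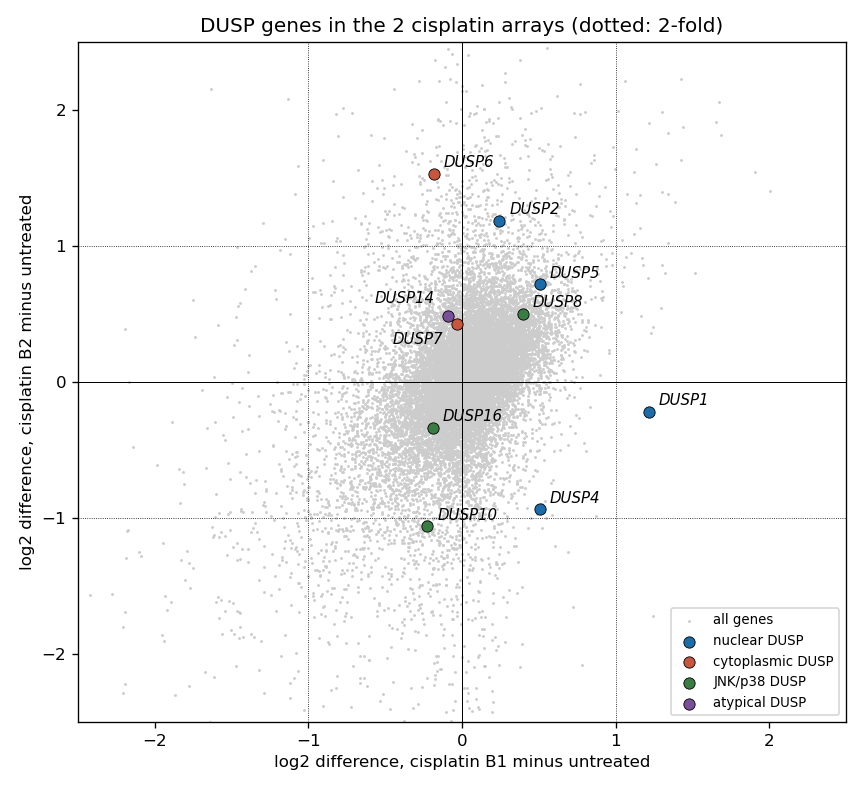
Log2 difference of cisplatin B1 (x axis) and B2 (y axis) from untreated, 1 point per gene by its brightest probe set; grey points are all genes, coloured points the 10 DUSP genes by class, and dotted lines mark 2-fold. DUSP6 and DUSP2 lie above the upper dotted line, DUSP1 right of the right one and DUSP10 below the lower one, and none lies past 2-fold in both arrays. Both axes use the same untreated array, and 134 genes lie beyond the axes.

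The phosphatases of JNK and p38 included both genes that were lower in each cisplatin array. DUSP10 (MKP-5) had log2 values of 9.26 untreated, 9.03 in B1 and 8.20 in B2 by probe set 221563_at, and the second probe set, 215501_s_at, had 8.07, 8.01 and 7.75. Both cisplatin values lay below untreated in each probe set, with most of the distance in B2 (2.09-fold lower by the first). The mean difference was -0.64 (SE 0.46, interval -2.09 to 0.80), and -0.42 as a mean over both probe sets. A B2 level at least 2-fold lower was seen in 1 of 10 members and 4.5% of all genes.

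DUSP16 (MKP-7), which binds JNK and shuttles between nucleus and cytoplasm, had 7.51 untreated, 7.32 in B1 and 7.17 in B2 by probe set 224832_at, a mean difference of -0.26 (SE 0.20, interval -0.89 to 0.37). Its 4 probe sets disagreed in direction. While 224336_s_at was also lower (-0.57 and -0.40), 1555399_a_at was at 0.04 and 0.06, and the dim 1563505_at, with an intensity of 19.2 untreated, was at 0.25 and 0.13. The mean over the 4 probe sets was -0.13.

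DUSP8, a JNK and p38 phosphatase known mostly from brain and heart, was the third gene higher in both arrays, by 1 of its 2 probe sets. Probe set 238594_x_at had log2 values of 6.63 untreated, 7.03 in B1 and 7.13 in B2, a mean difference of 0.45 (SE 0.19, interval -0.16 to 1.06). Probe set 206374_at was at 5.82, 5.997 and 5.53, higher by 0.18 in B1 and at -0.29 in B2, so that the mean over both was 0.20. The first has the ending that marks possible binding to other transcripts, and the annotation lists DUSP8 pseudogenes, so the DUSP8 value is uncertain.

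DUSP14 (MKP-6), the atypical member, had log2 values of 10.08 untreated, 9.99 in B1 and 10.57 in B2 by its only probe set, 203367_at. The untreated value lay between those of the cisplatin arrays, and the mean difference was 0.20 (SE 0.34, interval -0.88 to 1.28). Over all 22 probe sets of the 10 genes, 8 were higher in both arrays against 38% of all probe sets, 4 were lower in both against 28.9%, and 10 were opposite against 32.7%.

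Both members that were lower in each array were also the 2 of longest genomic span, the stretch of genome between a gene's outermost annotated bases (GRCh38.p14). DUSP10 spans 40.7 kb on chromosome 1 and DUSP16 spans 89.6 kb on chromosome 12, whereas the other 8 members span 2.27 kb (DUSP2) to 24.9 kb (DUSP14). Among genes at a mean log2 level of at least 6, the 3293 that span 30 to 100 kb lay at -0.10 (B1) and -0.08 (B2) at the median, and 44.1% were lower in both. The 2199 genes under 10 kb had medians of 0.08 and 0.13, and 13.9% were lower in both. DUSP10 and DUSP16 were thus below the median of genes of like span in each array, DUSP16 by less. Across the 10 members, which share the same arrays, Spearman's rank correlation of span with the log2 difference was -0.54 in B1 and -0.58 in B2, against -0.56 and -0.31 across 10203 genes, as a description only.

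**Figure D4:**
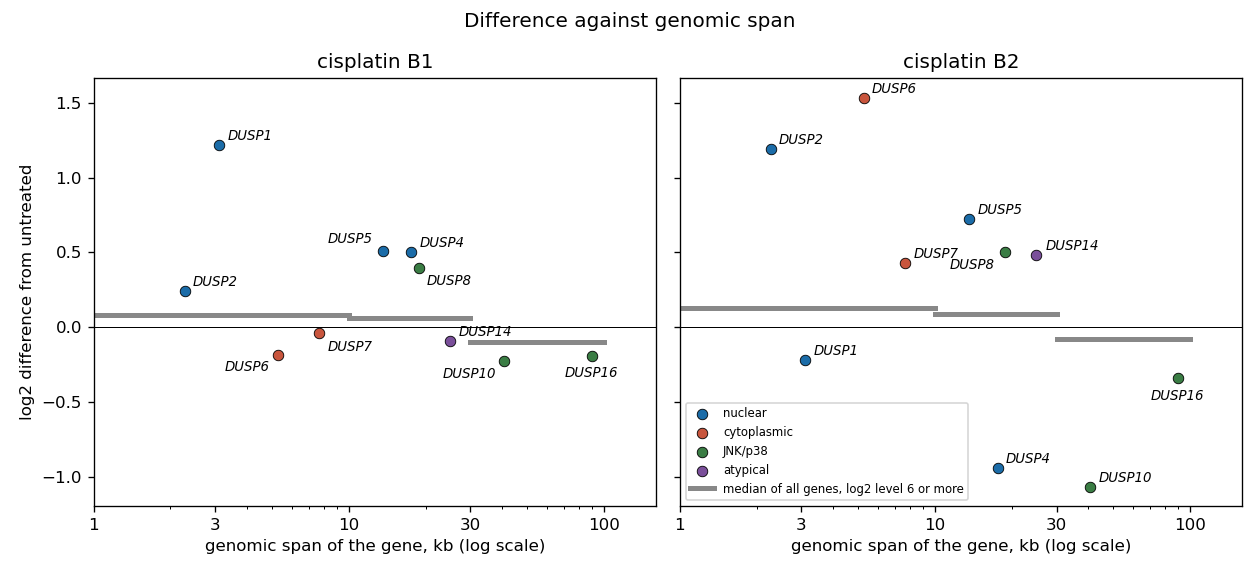
Log2 difference from untreated (y axis) against genomic span in kb (x axis, log scale) for the 10 DUSP genes in B1 (left) and B2 (right). Grey bars are medians of all genes with a mean log2 level of at least 6 that span under 10, 10 to 30 and 30 to 100 kb. DUSP10 and DUSP16, the longest, lie below 0 in both panels, and the shorter genes lie on both sides.

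Of 16 other dual-specificity phosphatase genes measured, 6 were higher in both arrays (39.2% of all genes), 2 lower in both (27.4%) and 8 opposite (33%), the B1 median being -0.01 and the B2 median 0.19 (all genes 0.03 and 0.05; the 10 members 0.10 and 0.46). DUSP15, DUSP21 and STYXL2 of the higher and DUSP13B of the lower lay below a mean log2 level of 6. DUSP23, a small atypical phosphatase, was higher by 0.25 and 1.4998, and DUSP28 by 0.50 and 0.45. STYXL1, a catalytically inactive relative, was at -0.10 and -0.30 (a mean of -0.20, but -0.08 over all its probe sets). DUSP9, the third cytoplasmic ERK phosphatase and dim here, was at -0.01 in B1 and 1.30 in B2; it was picked after its values were seen.

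The Sprouty, SPRED and ETV genes are further feedback inhibitors and targets of ERK. Of 9 measured, 3 were higher in both arrays (39.2% of all genes) and 2 lower in both (27.4%). Among genes at a mean log2 level of at least 6 these shares were 29.8% and 34.2%. Their medians were -0.09 in B1 and 0.38 in B2, against 0.03 and 0.05 for all genes. ETV1, among the higher, lay below a mean log2 level of 6. SPRY4 was higher by 0.31 and 1.03, SPRED1 was at -0.44 and -0.57, and SPRED2 was at -1.44 and -0.66 (-0.41 as a mean over its probe sets). ETV5, an ERK-induced transcription factor picked after its values were seen, was at -0.09 in B1 and 1.57 in B2, beside -0.18 and 1.53 for DUSP6. The mean difference of ETV5 was 0.74, but 0.53 over all its probe sets. Its relative ETV4 was at -0.11 and 0.38. None of the genes in these or the following lists passed limma's test, and every difference shares the 1 untreated array.

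The next 3 lists cover the MAP kinases and the kinases above them. The shares of all genes are 39.2% higher and 27.4% lower in both arrays. Among genes at a mean log2 level of at least 6 they are 29.8% and 34.2%. At that level were 17 of 19 MAP3 kinases and RAF genes, 5 of 5 MAP kinase kinases and 10 of 12 MAP kinases. Of 19 measured MAP3 kinases and RAF genes, 10 were lower and 5 higher in both arrays (medians -0.05 and -0.49). Among the lower were MAP3K5 (ASK1), a stress-activated kinase upstream of JNK and p38, at -2.09 and -1.28, and MAP3K9 at -0.81 and -0.78. TAOK3 was also lower, at -0.70 and -1.26 (a mean of -0.98, but -0.59 over all its probe sets). Of 5 MAP kinase kinases, 3 were lower and 0 higher in both: MAP2K4, an activator of JNK, at -0.54 and -1.30, MAP2K1 (MEK1) at -0.22 in each, and MAP2K5 at -0.10 and -0.31. Of 12 genes of the MAP kinase list, 4 were lower and 3 higher in both. Its share of lower genes was near the 34.2% of genes at a mean log2 level of at least 6. MAPK8 (JNK1) was at -0.38 and -1.03 and NLK at -0.85 and -1.51, against 0.28 and 0.29 for MAPK3 (ERK1). MAP3K5 was the only gene of these 3 lists lower by 2-fold in both arrays (0.678% of all genes were so lower). MOS, among the 5 higher genes of the first list, lay below a mean log2 level of 6.

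Downstream of the MAP kinases, the values went both ways. For the 4 lists here, the shares of all genes are 39.2% higher and 27.4% lower in both arrays. At a mean log2 level of at least 6 they are 29.8% and 34.2%. Of 18 measured substrate transcription factors, 8 were higher and 5 lower in both arrays (medians 0.02 and 0.18). FOS, at 2.01 and 1.40, and JUN, at 1.16 and 1.13, were the 2 genes past 2-fold in both (0.142% of all genes were so higher). ETS2 was at 0.66 and 0.55 (0.28 as a mean over its probe sets). Of 11 kinases activated by MAP kinases, 5 were lower and 3 higher in both, with RPS6KA5 (MSK1) at -0.85 and -1.19, RPS6KA3 (RSK2) at -0.47 and -0.76, and MKNK2 at 0.33 and 0.40 (a mean of 0.36, and 0.57 over all its probe sets). Of 9 scaffold genes, 4 were higher and 1 lower, with MAPK8IP2 at 0.51 and 0.18, KSR1 at -0.07 and -0.22, and LAMTOR3 at 0.12 and 0.07. Over all probe sets the mean was -0.43 for KSR1, against -0.14 by the brightest, and -0.0024 for LAMTOR3, which changed sign from 0.09. Of 8 phosphatases of MAP kinases from other families, 3 were higher (PTPN5, PTPN7 and PPP2CA) and 1, the tyrosine phosphatase PTPRR (-0.63 and -0.34), was lower. PPP2CA, the catalytic subunit of PP2A, was at 0.10 and 0.13, but -0.32 as a mean over its probe sets. PTPN5 and PTPN7 lay below a mean log2 level of 6. So did MEF2C, KSR2 and MAPK8IP1 among the higher genes of the other lists in this paragraph, and RPS6KA6 among the lower.

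**Figure D5:**
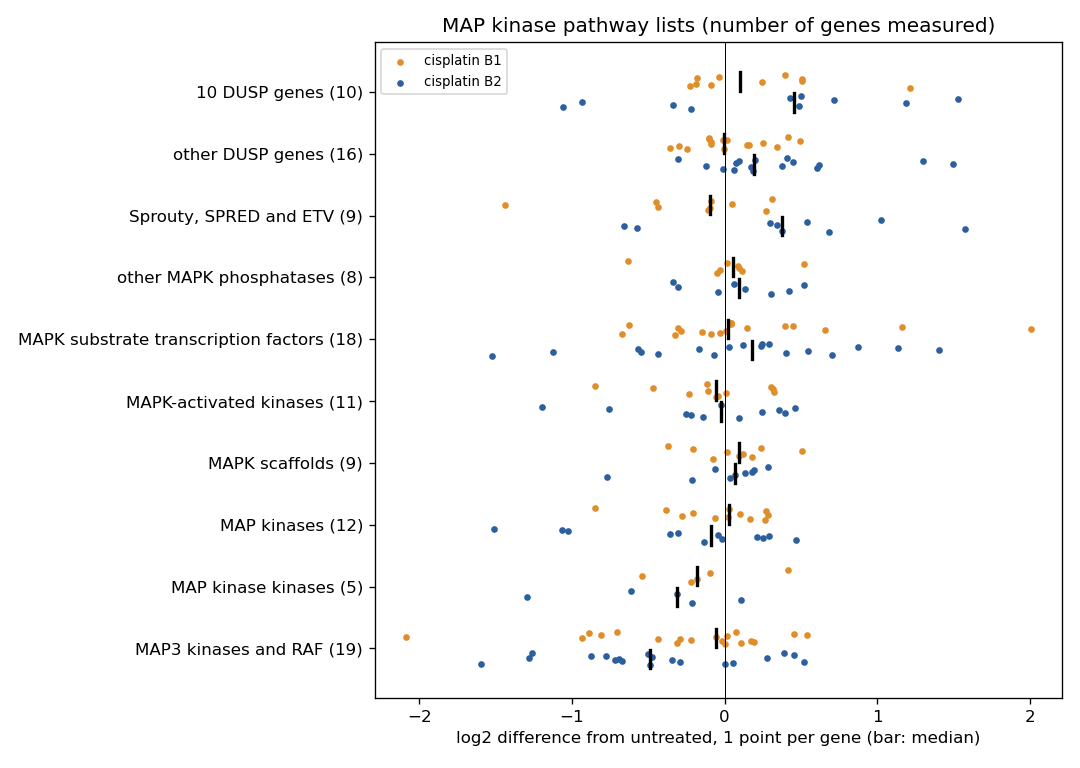
Log2 difference from untreated (x axis) for genes of the MAP kinase pathway lists (y axis, number of measured genes in brackets), 1 point per gene by its brightest probe set, orange for B1 and blue for B2. Black bars are list medians: the 10 DUSP genes have 0.10 in B1 and 0.46 in B2, and the MAP3 kinases and RAF have -0.05 and -0.49.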

How the data were processed

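Expression was measured on 3 Affymetrix oligonucleotide arrays (1 untreated, 2 cisplatin). The deposited values are intensities for 54675 probe sets per array, made by the authors with RMA per the submitters' processing notes; its version and the chip definition: not given in the sources used here. They ran from 3.03 to 19645, a linear scale, and were set to log2 with no pseudocount. The 62 control probe sets were left out; 41091 probe sets carried 1 gene symbol, 1801 several, and 11721 were unnamed. Symbols were updated by gene number (19735 of 19777 genes found). Without detection calls, dim and undetected probe sets look alike. Precision is limited by the number of arrays.

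The all-gene test was limma 3.58.1 (R 4.3.3; lmFit, then eBayes) on cisplatin minus untreated, adjusted over all genes by Benjamini-Hochberg. It had 1 residual and 2.01 prior degrees of freedom, and assumes that the single untreated array varies as the cisplatin pair does. The fit was tested on simulated data in which all genes had equal noise. Recovery of most added differences was required only at noise well below the median spread of the cisplatin pair. The simulation therefore does not show which differences the fit could detect in these arrays. Members and lists were chosen with earlier results of these data known. Named were all members, up to 3 genes of each pathway list with the largest smaller-of-2 difference in 1 direction at a mean log2 level of at least 6, and the 3 genes nearest to the member leading by that measure. Outside this rule, DUSP9 and ETV5 were named after their values were seen, with ETV4 beside them. Cell type markers and counted list genes below that level were also named. Alternatives covered probe set choice, scaling, a pseudocount of 16, dim genes, the variance prior, fold thresholds and each cisplatin array alone.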

Additional observations from a re-analysis of the deposited data

How the results depend on the processing

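The count of genes passing limma stayed at 0 under the 8 alternatives in which a test could be fitted. At an unadjusted p under 0.05 there were 508 to 612 genes with another scaling and 264 above a mean log2 level of 6. The other gene settings gave 544 to 677 genes. With each probe set fitted there were 1414 of 41091 probe sets, a count of probe sets and not of genes. With 1 cisplatin array left out no residual spread remains, so no test was made, and without the untreated array no comparison exists. No paired analysis was possible because the untreated group has 1 array without a replicate number. Past 2-fold in both arrays there were 28 higher and 134 lower genes. These counts were 81 and 297 over probe sets, 189 and 524 at 1.5-fold and 1 and 6 at 4-fold. The lower genes numbered 38 with the mean of all probe sets. With 1 cisplatin array they ranged from 47 (B1) to 591 (B2) higher and from 299 to 890 lower.

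Of the members, 3 were higher in both arrays (39.2% of all genes), and 8 of 22 probe sets (38% of all probe sets). With the mean of all probe sets 5 were higher, and the share of all genes was not counted at that setting. In both arrays 2 were lower (27.4% of all genes), and 4 probe sets (28.9%). In B1 alone 5 members were higher and 5 lower, and in B2 alone 6 and 4. Of the 19777 genes, 10883 were higher and 8851 lower in B1, and 11193 and 8559 in B2. By 2-fold, 1 member was higher in B1 (0.238% of all genes) and 2 in B2 (2.99%). Lower by 2-fold were 0 members in B1 (299 of all genes) and 1 in B2 (4.5%). No member's mean difference turned its sign under another scaling, the pseudocount or the mean of its probe sets. With 1 array alone it did for DUSP1 (-0.22 to 1.22), DUSP4 (-0.94 to 0.51), DUSP6 (-0.18 to 1.53), DUSP7 (-0.034 to 0.43) and DUSP14 (-0.089 to 0.49).

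Of the list medians, those that moved by more than the SD between the arrays were of MAP kinases (-0.027 to 0.059 with the mean of all probe sets), MAP kinase kinases (from -0.20 to a range of -0.31 to -0.18 with 1 array), and scaffolds, from 0.074 to 0.015 (mean of probe sets), 0.047 (quantile), 0.0356 (median centring), 0.0364 (pseudocount) and -0.0080 (level of 6). The median of MAPK-activated kinases went from -0.068 to -0.0060 (quantile), -0.11 (median centring), -0.031 (pseudocount), -0.038 (level of 6) and -0.057 to -0.022 (1 array). That of other MAPK phosphatases went from 0.077 to -0.00033 (mean of probe sets), 0.11 (quantile) and 0.039 (median centring). The causes were not tested.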
